A study of Mus musculus with 40 samples.

Results

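Among the cloned open-chromatin fragments of a reporter screen in mouse blood development, 2423 of 354627 different fragments were silent at the early stages and active at a later one. A fragment is a stretch of genome defined by its chromosome, start and end. Fragments were selected on their presence in the libraries of 1 replicate. They had to be in the Negative library of embryonic stem cells (ES) or hemangioblast-like cells (HB), in none of the 6 Low, Medium or High libraries of ES and HB, and in at least 1 of the 9 Low, Medium or High libraries of the later stages. Such fragments are called late-active here, and every fragment that met the early conditions, whether or not it was found later, is called early silent. Replicate 1 held 1941 late-active fragments and replicate 2 held 482, and no identical fragment was late-active in both replicates, which allows a share of up to 0.622% of those of replicate 2. Few fragments of any kind were identical in both, with 3392 over the whole series (1.18% of replicate 1 and 4.87% of replicate 2) and 4 among the early silent ones.

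The screen measured enhancer activity in HM-1 mouse embryonic stem cells of strain 129/ola, in which Hprt is defective until an integrating construct restores it. Each construct carried 1 fragment in front of the minimal HSP68 promoter and a Venus-YFP reporter. The libraries came from ES cells, FLK1+ HB cells of embryoid bodies, hemogenic endothelium 1 (HE1, KIT+ TIE2+ CD41-), hemogenic endothelium 2 (HE2, KIT+ TIE2+ CD41+) and hematopoietic progenitors (HP, KIT+ TIE2- CD41+), each sorted into Negative, Low, Medium and High YFP gates in 2 replicates. This gave 40 libraries of 4869 to 51146 fragments in replicate 1 and 654 to 31915 in replicate 2. All groups shared the same parental line, promoter and integration site, and the Negative gate was set on cells that carried the promoter alone. The libraries list which fragments were present and hold no expression values, so the labelled cell types could not be checked against marker genes.

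An enhancer raises transcription from a promoter when the transcription factors that recognise its sequence are present. During blood development FLK1+ mesoderm gives rise to hemogenic endothelium, and RUNX1 then drives the endothelial-to-hematopoietic transition, in which endothelial genes are turned off and blood genes are turned on. AP-1 and TEAD factors relay extracellular signals, while GATA2, TAL1, PU.1 and RUNX1 are core blood regulators. A fragment that a cell stage cannot use early and can use late is therefore of interest as a candidate for stage-specific control.

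The sequences of 9 late-active fragments are shown because they stood for the main groups described further on. The first 5 were among the 10 that occurred in the most late positive libraries, the next 3 lay nearest to genes of endothelium, blood or signalling, and the last had overlapping fragments with the same pattern in the other replicate. Each is the plus strand of the mm10 (GRCm38) reference, which comes from C57BL/6J and not from the 129/ola cells. Capitals mark matches, on either strand, to short words that stand for the sites of known factors. AP-1 was searched as TGACTCA and, for its other central base, as TGAGTCA. RUNX was searched as TGTGGT, PU.1 as GAGGAAGT, GATA factors as AGATAA and TEAD factors as GGAATG. SOX factors were searched as ACAATGG and as ACAAAGG. OCT was searched as ATGCAAAT, the E-box as CAGCTG, CEBP as TTGCNNAA and RBPJ as TGGGAA, beside the longer consensus of CTCF. No word contains another, but RBPJ and TEAD words can share 4 letters at their ends. These make 11 motifs.
Vps37c intron: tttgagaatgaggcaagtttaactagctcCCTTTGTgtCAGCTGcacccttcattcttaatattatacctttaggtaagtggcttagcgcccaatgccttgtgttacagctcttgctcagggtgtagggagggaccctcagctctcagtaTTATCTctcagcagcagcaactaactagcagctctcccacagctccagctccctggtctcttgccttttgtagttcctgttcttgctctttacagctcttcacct
Upstream of Hpf1: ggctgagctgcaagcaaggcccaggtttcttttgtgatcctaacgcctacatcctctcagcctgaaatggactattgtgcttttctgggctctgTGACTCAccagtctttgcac
Mast4 intron: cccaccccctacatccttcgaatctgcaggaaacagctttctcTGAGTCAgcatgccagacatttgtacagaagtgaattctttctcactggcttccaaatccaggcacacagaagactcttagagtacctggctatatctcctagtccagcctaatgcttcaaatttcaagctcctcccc
Pmvk intron: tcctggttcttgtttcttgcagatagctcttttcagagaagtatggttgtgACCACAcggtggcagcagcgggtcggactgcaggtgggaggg
Upstream of 6030466F02Rik: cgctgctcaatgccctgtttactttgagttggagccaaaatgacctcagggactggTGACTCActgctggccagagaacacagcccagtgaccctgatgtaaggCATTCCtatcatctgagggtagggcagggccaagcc
Upstream of Pecam1: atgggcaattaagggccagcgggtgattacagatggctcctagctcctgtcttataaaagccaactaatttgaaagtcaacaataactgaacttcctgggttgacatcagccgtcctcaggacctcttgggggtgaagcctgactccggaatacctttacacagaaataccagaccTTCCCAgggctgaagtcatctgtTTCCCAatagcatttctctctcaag
Upstream of Meis1: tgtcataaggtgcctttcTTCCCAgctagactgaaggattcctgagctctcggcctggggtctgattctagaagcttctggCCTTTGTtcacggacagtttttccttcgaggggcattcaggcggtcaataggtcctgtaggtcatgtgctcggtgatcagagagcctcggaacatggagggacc
Upstream of Fos: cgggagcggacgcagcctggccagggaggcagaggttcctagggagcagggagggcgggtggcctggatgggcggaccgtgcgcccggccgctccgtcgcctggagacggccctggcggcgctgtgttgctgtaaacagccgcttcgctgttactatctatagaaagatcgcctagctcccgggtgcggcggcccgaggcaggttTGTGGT
Downstream of the Socs3 start site: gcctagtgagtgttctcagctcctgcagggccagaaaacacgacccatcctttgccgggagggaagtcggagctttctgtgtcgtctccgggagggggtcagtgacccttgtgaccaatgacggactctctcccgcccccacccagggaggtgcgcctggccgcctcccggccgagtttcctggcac

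Most early silent fragments were not seen again. Replicate 1 had 16584 early silent fragments, of which 11.7% (Wilson 95% interval 11.2 to 12.2) were late-active, and replicate 2 had 3152, of which 15.3% (14.1 to 16.6) were late-active. As background, among all fragments found both early and late in a replicate, 91.7% in replicate 1 and 91.2% in replicate 2 were in a late Low, Medium or High library. Among the early silent fragments found late at all, the positive share was 88.4% (87.0 to 89.7) of 2196 in replicate 1 and 73.6% (70.1 to 76.8) of 655 in replicate 2. Fragments that had been positive and never Negative early gave 92.1% (91.6 to 92.6) and 93.8% (93.0 to 94.5). These shares are descriptions, since the late-active fragments were chosen by them. Pooled over all early states, most fragments found were positive in every late sort (70.7% to 96.6%) other than HP of replicate 2 (27.2%). The share varied with the early state. In replicate 2, early silent fragments were at 62.1% at HE2, and fragments not found early were at 22.2% at HP.

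The gap between early silent and early positive fragments changed with the sort, a sort being 1 stage of 1 replicate. In replicate 1, early silent fragments differed from early positive ones by -0.889 percentage points in positive share at HE1, -2.35 at HE2 and -10.5 at HP. In replicate 2 the differences were -26.6 points at HE1, -13.7 at HE2 and 1.8 at HP. At HP of replicate 2, 54.2% of 227 early silent fragments found were positive (47.7 to 60.5) against 52.4% of 1235 early positive ones (49.6 to 55.2), and the intervals overlapped. Early silent fragments were thus most unlike early positive ones at HE1 of replicate 2, where 67.3% of 397 (62.5 to 71.7) were positive against 93.9% of 4033 (93.1 to 94.6).

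**Figure D1:**
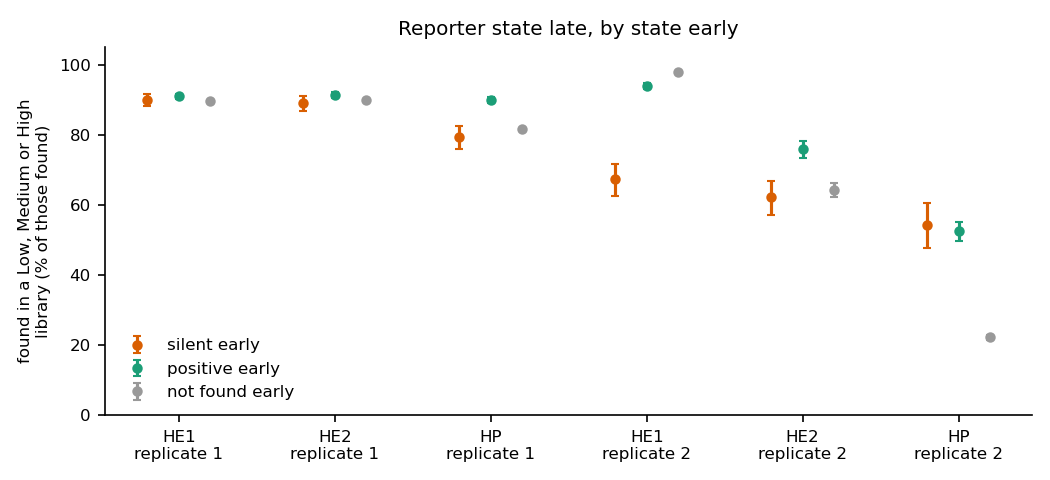
Percent of the fragments found at a late sort that were in its Low, Medium or High library (vertical axis), by early state, for HE1, HE2 and HP of each replicate. Bars are Wilson 95% intervals, which for the larger sets are smaller than the points. Early silent fragments were at 90.0% and 89.0% at HE1 and HE2 of replicate 1, near early positive ones at 90.9% and 91.4%, and at 67.3% against 93.9% at HE1 of replicate 2.

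Silence early was only weakly determined by absence from the libraries. Of the fragments positive at ES, 5.52% in replicate 1 and 27.3% in replicate 2 were also found in a positive HB library, so an active fragment was mostly absent from the positive libraries of the neighbouring stage. Of the fragments in an early Negative library, 10.9% (2028 of 18612) in replicate 1 and 40.2% (2117 of 5269) in replicate 2 were also in an early positive library and were therefore not counted as silent. Only 28 late-active fragments of replicate 1 and 58 of replicate 2 were in both early Negative libraries. In replicate 1, 1099 were in ES Negative and 870 in HB Negative, and in replicate 2 these numbers were 217 and 323.

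Most late-active fragments rested on a single late library. In replicate 1, 80.8% (1568 of 1941) were in exactly 1 late positive library, and in replicate 2, 73.9% (356 of 482). Over both replicates 371 were in 2, 84 in 3, 32 in 4, 9 in 5, 2 in 6 and 1 in 7 of the 9 such libraries. By stage, 820 fragments of replicate 1 were positive at HE1 alone, 516 at HE2 alone, 312 at HP alone and 26 at all 3 stages. These were 42.2%, 26.6%, 16.1% and 1.34% of them, beside 46.4%, 30.5%, 16.7% and 0.457% of all late positive fragments. In replicate 2 the numbers were 167, 147, 52 and 34, or 34.6%, 30.5%, 10.8% and 7.05%, beside 80.9%, 3.95%, 9.2% and 2.12% of all late positive fragments. Of the 147 at HE2 alone, 77 had HE2 High as their only late positive library, a small library that stood apart, as described below. HE1 alone was thus the most frequent pattern of late-active fragments in both replicates, but with a lower share than among all late positive fragments. Fragments positive and never Negative early, and positive again late, gave another order. Of these, 32.6% in replicate 1 and 69.9% in replicate 2 were positive at HE1 alone. The late-active share of HE1 alone was above theirs in replicate 1 and below it in replicate 2. At HE2 alone they had 19.0% and 5.85%, and at HP alone 29.3% and 2.44%. HE1 also held the largest library of each replicate.

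Activity at 2 or more late stages was found for 15.1% of the late-active fragments in replicate 1 and 24.1% in replicate 2. Fragments that had been positive and never Negative early, and were positive again late, gave 19.1% (of 10874) and 21.8% (of 4173), whereas all late positive fragments gave 6.47% and 5.93%. The last set includes fragments seen in 1 library only, which the first 2 sets exclude by construction. Compared with fragments that had likewise been seen before, early silence went with a lower share in replicate 1 and a higher one in replicate 2.

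Late-active fragments also occurred among cells without reporter signal. In replicate 1, 21.9% (426) were in a late Negative library as well, and 19.3% (374) were Negative and positive in the same late sort. In replicate 2 these shares were 44.2% (213) and 32.8% (158). Of the 374 in replicate 1, 339 were in HE1 Medium and HE1 Negative, a pair that shared 28868 fragments of any kind. The same-sort share of replicate 1 thus rested mostly on 1 pair of libraries. The HP gates of replicate 1 shared 0 fragments between the Negative and the positive libraries, unlike the other late sorts. In 6.8% of replicate 1 and 9.75% of replicate 2 the same fragment was in 2 or more positive gates of 1 sort.

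The share of late-active fragments was even across the libraries of replicate 1 and uneven in replicate 2. In replicate 1 they made up 0.954% (0.845 to 1.08) of HE2 Low at the lowest and 1.4% (1.23 to 1.6) of HE1 Low at the highest among the 9 late positive libraries. Early silent fragments made up 1.14%, 1.35% and 1.44% of the Negative libraries of HE1, HE2 and HP in the same replicate, so the late Negative libraries held about as many of them as the positive ones. In replicate 2 the share ran from 0.589% (0.511 to 0.679) of the 31915 fragments of HE1 Low to 15.7% (13.2 to 18.7) of the 654 fragments of HE2 High. The Negative libraries of replicate 2 held 7.75%, 8.65% and 1.09% early silent fragments at HE1, HE2 and HP.

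**Figure D2:**
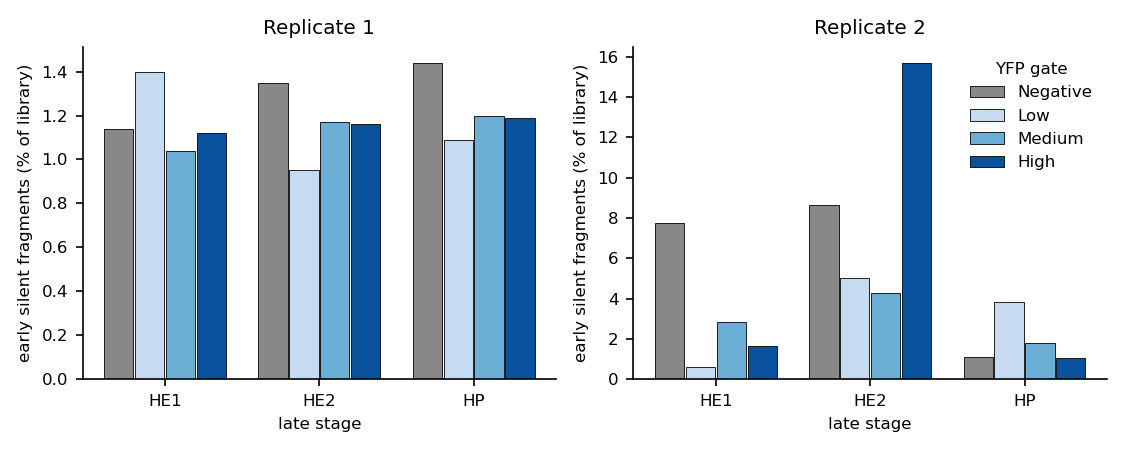
Early silent fragments as a percent of all fragments of each late library (vertical axes, with a different scale for each replicate), by stage and YFP gate. In the Low, Medium and High gates these are the late-active fragments, and HE2 High of replicate 2 stood apart at 15.7%.

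A pair of libraries stood apart and each was left out in turn. HE2 High of replicate 2, the smallest library, held 103 late-active fragments, 100 of which were in HB Negative, and 49.2% (322) of all its fragments were identical to fragments of HB Negative. It was the only late positive library for 77 of them, and without it replicate 2 had 405 late-active fragments. HE1 Medium of replicate 1 shared 28868 fragments with HE1 Negative of the same replicate, or 69.8% of the latter. It held 534 late-active fragments, of which 339 were also in HE1 Negative, and was the only late positive library for 355. Without it replicate 1 had 1586. Whether the shared fragments came from the same cells was not tested.

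Most late-active fragments stood alone at their place. The 1941 of replicate 1 lay at 1699 separate places and the 482 of replicate 2 at 464, and 196 (11.5%) and 13 (2.8%) of these places held 2 or more, up to 5 and 4. The rule bars an identical early positive fragment but not an overlapping one. Another fragment that shared at least 50% of both lengths was positive early in the same replicate for 78.2% (76.3 to 79.9) of the late-active fragments of replicate 1 and 19.3% (16.0 to 23.1) of those of replicate 2. The same held for 74.5% (68.8 to 79.5) and 28.3% (22.1 to 35.5) of the early silent fragments found late in Negative libraries alone, and for 67.7% (66.9 to 68.5) and 10.1% (8.93 to 11.3) of those not found late. In replicate 1 most early silent fragments of every kind thus lay where a fragment with other ends was positive early.

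Sequence and position were compared, within each of the 6 late sorts, between late-active fragments and still-silent ones, which are early silent fragments found late in Negative libraries alone. There were 255 still-silent fragments in replicate 1 and 173 in replicate 2. Length, GC content and overlap missed the threshold of 0.05, and the 11 motifs missed it after adjustment, in an exact permutation test that exchanged the labels within sorts, with 0.0312 as the smallest p that 6 sorts allow. A fragment found at several stages entered several sorts, so the sorts of a replicate were not independent.

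Late-active fragments had a median length of 188 ± 37.0 bp (SD, n = 6 sorts) against 201 ± 24.0 bp, a difference of -13.3 bp (exact permutation p = 0.219). The difference was -26.5 bp in replicate 1 and -0.167 bp in replicate 2. GC content was 54.2% ± 3.37 against 53.9% ± 3.05, a difference of 0.245 points (exact permutation p = 0.281). An overlapping early positive fragment was found for 49.0% ± 32.2 of late-active and 53.1% ± 23.2 of still-silent fragments (exact permutation p = 0.375). That last difference was 4.51 points in replicate 1 and -12.7 points in replicate 2, where late-active fragments were lower at every one of the 3 stages.

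Of the 11 motifs, 0 passed the threshold after Benjamini-Hochberg adjustment in the exact permutation test (lowest adjusted p = 0.115), while 3 reached the smallest unadjusted p of 0.0312. With 6 sorts at least 7 of the 11 motifs would have had to reach it for any to pass, so the count of 0 says little about single motifs. RUNX words, bound by the factor that drives the transition to blood, were in 13.6% ± 3.87 of late-active and 19.2% ± 4.24 of still-silent fragments (SD, n = 6 sorts), lower in 6 of 6 sorts, with differences from -13.1 to -0.629 points. PU.1 words, those of a myeloid regulator, were in 1.92% ± 0.677 against 0.975% ± 0.49 and higher in 6 of 6 sorts. These rested on 3 still-silent fragments with a match in replicate 1 and 1 in replicate 2. CTCF matches, those of a factor of genome architecture, were in 4.9% ± 3.37 against 3.41% ± 3.11 and higher in 6 of 6 sorts. In replicate 2 only 1 of 173 still-silent fragments had a CTCF match, so a lower late-active share was hardly possible there. At HE2 of replicate 1 the CTCF difference was 0.0759 points. In whole sets, RUNX words were in 11.7% (10.3 to 13.2) of late-active fragments in replicate 1 and 18.3% (15.1 to 22.0) in replicate 2, with 13.9% and 18.6% over all fragments. CTCF matches were in 7.51% (6.4 to 8.79) and 2.31% (1.3 to 4.09), with 5.00% and 1.31% over all fragments. PU.1 words were in 2.18% (1.61 to 2.95) and 1.68% (0.854 to 3.28), with 2.92% and 2.13% over all fragments. In replicate 1 the share over all fragments lay above the interval for RUNX, below it for CTCF and inside it for PU.1. Fragments positive at ES or HB in replicate 1 had 12.8% for RUNX, inside the interval, and 6.29% for CTCF, just below it. Other motifs, given next, also had shares outside.

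AP-1 words, read by the signal-responsive FOS and JUN family, were in 8.22% ± 1.26 of late-active and 5.26% ± 1.37 of still-silent fragments, higher in 5 of 6 sorts (exact permutation p = 0.0625, adjusted 0.172). Over whole sets they were in 7.57% (6.45 to 8.85) of late-active fragments of replicate 1 and 7.56% (5.51 to 10.3) of those of replicate 2, with 9.04% and 5.79% over all fragments. GATA words differed by -1.66 points and TEAD words by -1.54 points, and both had an adjusted p of 0.196 in the same exact test. In late-active fragments of replicates 1 and 2, GATA words were in 7.14% (6.06 to 8.39) and 12.8% (10.1 to 16.1), and in 9.8% and 12.2% of all fragments. TEAD words were in 9.64% (8.39 to 11.1) and 13.4% (10.7 to 16.8), and in 11.3% and 14.6% of all fragments. In replicate 1 the share over all fragments thus lay above the interval for AP-1, GATA and TEAD, and in replicate 2 inside it. For AP-1 in replicate 1, late-active fragments were therefore above still-silent ones but below all fragments. Low AP-1 and GATA shares were not particular to late-active fragments in replicate 1. All fragments positive at ES or HB had 6.67% for AP-1 and 7.66% for GATA. Early silent fragments not found late had 7.38% and 7.91%. These values lay inside the late-active intervals, whereas TEAD, at 11.2% and 11.5% in these sets, lay above its interval.

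The remaining motifs differed by less or with opposite signs in the sorts. CEBP words differed by -5.05 points, almost all of it in replicate 2 (-10.1 points, lower at all 3 stages). SOX words differed by -2.81 points, OCT words, those of the pluripotency factor OCT4, by -0.513, E-boxes, read by TAL1 and other basic helix-loop-helix factors, by 0.155 and RBPJ words, those of the Notch effector, by 0.0308. The shares of all fragments of replicates 1 and 2 that held these words were 5.43% and 8.91% for CEBP, 7.81% and 9.24% for SOX, 0.852% and 1.18% for OCT, 15.7% and 15.2% for the E-box and 17.3% and 22.6% for RBPJ. RBPJ words were in 14.8% (13.3 to 16.5) and 22.9% (19.4 to 26.9) of late-active fragments. In replicate 1 the share over all fragments thus lay above the interval for RBPJ, and inside it for CEBP, SOX, OCT and the E-box.

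**Figure D3:**
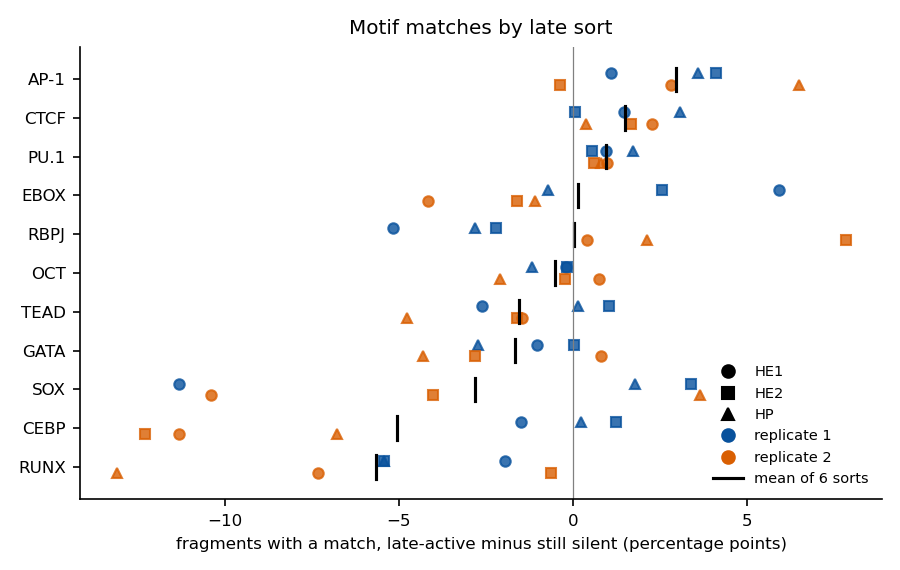
Percent of late-active fragments with a motif match minus that of still-silent fragments, in percentage points, for 11 motifs (rows) and 6 late sorts (points; shape for the stage, colour for the replicate). Black bars are means over the sorts. RUNX lay below 0, and PU.1 and CTCF above 0, in all 6 sorts, with adjusted p = 0.115 each in the exact permutation test.

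Position was examined with 6 measures added after values had been seen. The median distance to the nearest transcription start site was 17.6 ± 3.74 kb for late-active and 20.3 ± 3.79 kb for still-silent fragments (SD, n = 6 sorts). The difference was -2.74 kb on average and below 0 in 6 of 6 sorts (exact permutation p = 0.0312, adjusted over the 6 measures 0.0938). The adjusted value did not pass the threshold. Within 1500 bp of a start site lay 1.97% ± 1.31 against 1.14% ± 1.26 (exact permutation p = 0.0312, adjusted 0.0938). In replicate 2 the still-silent share was 0% in every late sort and the late-active share 0.752% to 0.826%. This difference thus rested on few fragments. The authors had classed fragments that near a start site apart as promoter fragments, so these measures describe lists already filtered by position. Shares in introns (41.7% against 39.7%), between genes (48.8% against 50.5%), in exons (9.46% against 9.81%) and in repeats (10.6% against 10.9% of bases) gave adjusted p values of 0.637 to 0.906.

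The replicate that had not been used for the choice was then read at the same places. Of the late-active fragments of replicate 1, 24.9% (483) were overlapped by any fragment of replicate 2 over at least 50% of both lengths, and 17.2% (83) of those of replicate 2 were overlapped in replicate 1. Fragments of replicate 1 that overlapped late-active ones of replicate 2 were positive in 70.2% of 131 cases at ES and 85.0% of 147 at HB. They were positive in 84.1% of 290 at HE1, 91.3% of 196 at HE2 and 80.3% of 137 at HP. All fragments of these sorts were positive in 74.2%, 83.4%, 89.6%, 89.9% and 82.4% of cases, and the value for HE1 alone lay outside the interval of the overlapping fragments (79.5 to 87.9). The 290 fragments at HE1 lay over at most 83 late-active ones, so many shared a place. The interval counts them as independent and may be too narrow to set HE1 apart.

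In replicate 2 the positive shares at the places chosen in replicate 1 were 82.3% of 141 at ES, 82.2% of 174 at HB, 95.6% of 316 at HE1, 83.6% of 73 at HE2 and 28.3% of 251 at HP, beside 81.8%, 86.6%, 96.6%, 70.7% and 27.2% of all fragments. Relative to all fragments of each sort, the positive share at late stages exceeded that at early stages by 2.7 percentage points, with an exact permutation p of 0.51 over 100 arrangements of the stages. The value was -0.885 points in replicate 1 and 6.29 in replicate 2, where HE2 stood highest at 12.9 points over the sort's own share. At the places of still-silent fragments the same quantity was -7.95 points (-3.9 in replicate 1 and -12.0 in replicate 2), on as few as 10 fragments in a sort, and the difference between the sets was not tested.

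**Figure D4:**
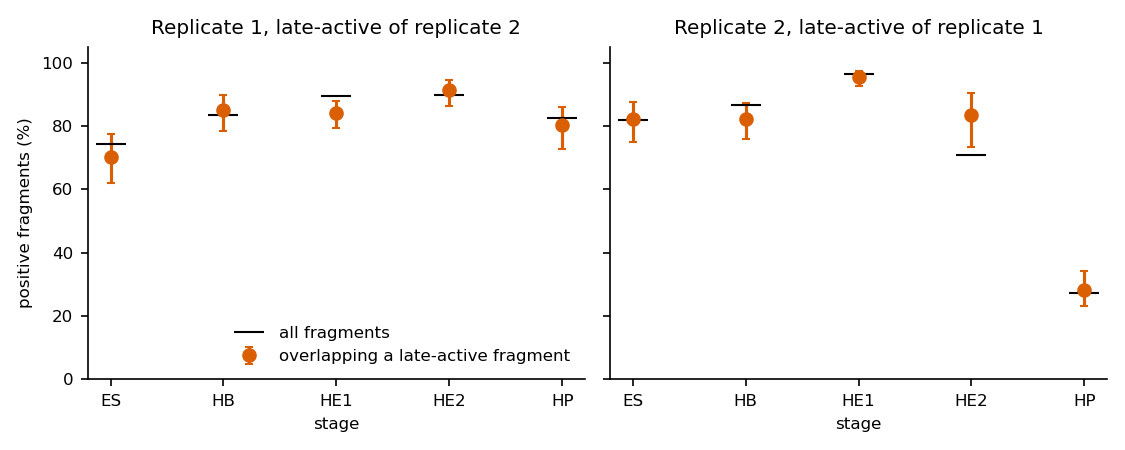
Percent positive of the fragments of 1 replicate that overlapped late-active fragments of the other (points, with Wilson 95% intervals), by stage, and of all fragments of the sort (black bars). At ES and HB 70.2% to 85.0% of the overlapping fragments were positive, and 8 of the 10 intervals held the value of all fragments. The intervals count fragments that share a place as independent, so they may be too narrow.

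The full pattern was seldom found in both replicates. For 15 late-active fragments of replicate 1 (0.773%, 0.469 to 1.27) the overlapping fragments of replicate 2 were Negative early, never positive early, and positive late. Early silent fragments of replicate 1 that were not found late had such a counterpart in 0.48% of cases (0.379 to 0.606), and early positive fragments that were positive again late in 0.635% (0.502 to 0.802). In the other direction there was 1 late-active fragment (0.207%, 0.0366 to 1.17), against 0.601% (0.364 to 0.989) of the early silent fragments not found late. The intervals of late-active fragments overlapped those of both other sets. More common was a counterpart positive both early and late, for 4.84% of late-active fragments in replicate 1 and 9.75% in replicate 2.

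The 15 fragments of replicate 1, named because of this pattern and after their values had been seen, included fragments nearest the start sites of Tmpo, Socs3, Xrcc3, Mier3, A330009N23Rik, Gm42329, Mir7021, Gm33989, Chd2 and Ano9. Socs3 encodes an inhibitor of cytokine signalling through JAK and STAT, and Chd2 encodes a chromatin remodeller. The fragment by Socs3 (chr11:117963326-117963512, between genes, 5947 bp from the start site) was in HB Negative, HE1 Low and HE2 High of replicate 1. In replicate 2 it was overlapped by 1 early Negative, 0 early positive, 1 late Negative and 1 late positive fragment. In its own replicate, however, 20 other early positive fragments overlapped it, and each of the 15 had 4 to 25 such fragments. In replicate 2 the fragment with a counterpart lay in an intron of Cux1 (chr5:136467428-136467616), which encodes a homeodomain factor.

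The fragments in the most late positive libraries were spread over unrelated genes. The highest was a 255 bp stretch in an intron of Vps37c (chr19:10691693-10691947), which encodes a subunit of the endosomal sorting complex ESCRT-I. In replicate 2 it was in HB Negative, in Low and Medium of HE1, in Low, Medium and High of HE2 and in Low and High of HP, which makes 7 late positive libraries. It was also in the Negative libraries of all 3 late stages. It had GATA, SOX and E-box words, and 0 fragments of replicate 1 overlapped it.

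A 114 bp fragment between genes (chr8:60773601-60773714), 116770 bp from the start site of Hpf1, was in 6 late positive libraries of replicate 1. These were every positive gate of HE1 and HE2, beside ES Negative and HE1 Negative, and 1 other early positive fragment overlapped it. A 181 bp fragment in an intron of the kinase gene Mast4 (chr13:103212216-103212396) was also in 6, in replicate 2. It was Negative at ES, HB, HE1, HE2 and HP and was in the Low gate of every late stage. In replicate 1, 2 late positive fragments overlapped the Mast4 fragment and 0 early or late Negative ones did. Both fragments held 1 AP-1 word.

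The other 7 of this group were in 5 late positive libraries each, all in replicate 1. They included fragments in an intron of Pmvk (chr3:89456833-89456925), which encodes phosphomevalonate kinase of sterol synthesis, and between genes nearest to Adgre5, Arhgap32, Mst1r, Akr7a5 and 6030466F02Rik. The fragments by Adgre5, Pmvk and Arhgap32 were in 0 late Negative libraries. The one by Adgre5 (chr8:83783301-83783425), which encodes the leukocyte adhesion receptor CD97, was in both early Negative libraries, but 4 other early positive fragments overlapped it. The one by Arhgap32 (chr9:31972186-31972314) was in ES Negative, HE1 Low, every positive gate of HE2 and HP High, and 0 early positive fragments overlapped it. The one by 6030466F02Rik (chr8:123717579-123717718) held an AP-1 and a TEAD word, so 3 of these 10 fragments held an AP-1 word. Such words were in 7.57% and 7.56% of all late-active fragments of replicates 1 and 2, and in 9.04% and 5.79% of all fragments. The 10 were ranked by the late positive libraries that the rule used, so the count of 3 is a description.

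Few late-active fragments lay by known genes of the lineage. Within 100 kb of the nearest start site, 7 of 1941 in replicate 1 (0.361%, 0.175 to 0.743) belonged to a list of 26 blood genes, as did 0.416% of early silent and 0.441% of all fragments. A list of 23 endothelial genes had 10 (0.515%, against 0.543% and 0.564%), and a list of 25 signalling genes had 14 (0.721%, against 0.742% and 0.585%). Lists of 17 pluripotency and 20 neuronal genes had 4 (0.206%, against 0.163% and 0.135%) and 3 (0.155%, against 0.187% and 0.119%). In replicate 2, of 481 placed fragments the blood list had 0, which allows a share of up to 0.624%, the endothelial and signalling lists 1 each, the pluripotency list 0 and the neuronal list 2. The shares of all fragments of replicate 2 by these lists were 0.287%, 0.231%, 0.29%, 0.0961% and 0.155% in the same order. Near-equal shares were thus seen among late-active, early silent and all fragments of replicate 1. In both replicates together 33 fragments lay by 24 genes of the first 3 lists.

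Among endothelial genes, Pecam1, which encodes the adhesion molecule CD31, had a fragment 7528 bp upstream (chr11:106722697-106722920). It was in ES Negative, HE1 Low, HE2 Low and HP High, in 0 late Negative libraries, and held 2 RBPJ words. A further Pecam1 fragment lay in an intron (chr11:106674787-106675034). Single fragments by Ets1, an endothelial ETS factor gene (chr9:32591898-32591994), and Nrp1, which encodes a VEGF co-receptor (chr8:128357229-128357381), were in 2 and 1 late positive libraries. The Nrp1 fragment was overlapped by 16 other early positive fragments of replicate 1.

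Among blood genes, a fragment 8176 bp upstream of Meis1, a homeobox factor of blood progenitors (chr11:19027053-19027237), was in HB Negative, HE1 Low, HE1 Medium and HE2 Medium. It held a SOX and an RBPJ word, and 3 other early positive fragments overlapped it. A fragment in an intron of Itga2b, which encodes the CD41 used to sort the cells (chr11:102467046-102467386), was in HB Negative, HE1 Low and HP Medium, with 9 other early positive fragments over it.

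Among signalling genes, Fos had fragments 12177 bp downstream of its start site (chr12:85485985-85486148) and 1606 bp upstream (chr12:85472179-85472389), with 12 and 2 overlapping early positive fragments. The upstream one was in ES Negative and HE2 Medium and ended in a RUNX word. Junb, which like Fos encodes an AP-1 subunit, had 1 fragment 2063 bp from its start site (chr8:84976628-84976742). It was in HB Negative, HE1 Negative and HE1 Medium, the pair of libraries described above for the fragments they shared. Tead1, a Hippo pathway factor gene, had 1 in an intron (chr7:112743821-112743936), in HB Negative, HE1 High and HP Medium. Each of the 10 fragments named for these lists had at least 1 other early positive fragment over it in replicate 1.

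The most late-active fragments by a single gene were the 7 by Arhgap23, all in replicate 1, followed by 6 each by Gm33989, Mier3, Nans and Zmiz2. By nearest gene, 51 genes had late-active fragments in both replicates, which is 3.68% of the 1384 genes of replicate 1 and 13.2% of the 385 of replicate 2. For early silent fragments, which were more numerous, these shares were 17.3% of 5212 and 44.1% of 2048 genes, and for all fragments 84.6% of 10519 and 57.0% of 15615.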

How the data were processed

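Per the labels and the methods, Tn5-cut fragments of 5 stages were cloned, integrated at Hprt, amplified from sorted cells and read from both ends. After trimming (Trim Galore), the authors used Bowtie2 for alignment to mm10 and kept each distinct fragment once. No tool versions are stated there for the reporter libraries. The methods also removed fragments identical to those amplified from untransfected cells. They kept those in DNaseI-defined open chromatin that had an ATAC peak at the matching stage. Fragments within 1500 bp of a start site were classed apart as promoter fragments. Of all fragments here, 2.1% in replicate 1 and 0.773% in replicate 2 lay that near one. Whether these filters kept a fragment out of a library was not tested. The authors deposited, per library, coordinates of unique fragments (other values, in base pairs), with no read count. Depth is therefore the number of fragments, PCR copies without molecular identifiers are not independent molecules, and Wilson 95% intervals, like the limit of 3 counts where none was found, describe counting error alone.

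The titles gave the stage, gate and replicate of each library. Fragments matched where chromosome, start and end were identical within a replicate. Overlap meant at least 50% of both fragments. Sequence came from GRCm38, genes from curated RefSeq transcripts, and motifs were counted where the nearest start site was over 1500 bp away. A set needed 20 fragments in a sort to give a value. Late-active and still-silent fragments were compared by two-sided exact permutation of labels within the 6 late sorts, which keeps the replicate as a block. Stages of a replicate derive from 1 transfected pool, and nothing says how far apart the replicates were made, so p-values measure the spread between these sorts. Motif p-values were adjusted over 11 motifs by the Benjamini-Hochberg method. Analyses used Python 3.11.15, numpy 2.4.6 and scipy 1.17.1, and were tested on simulated data. Of the 2423 fragments, 1 lay on an unplaced scaffold and had no sequence measures. Named fragments were the 10 in most late positive libraries (ties by fewest late Negative ones) and up to 10 nearest to listed genes within 100 kb; some are not reported here. The fragments, gene lists and tests were chosen with earlier results of these data known. Alternatives were matching within 5 bp, other comparison sets and overlaps, and leaving out libraries or replicates.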

Additional observations from a re-analysis of the deposited data

Results flagged for a closer look

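RBPJ words differed in opposite directions in the replicates: the share in late-active minus that in still-silent fragments was -3.39 percentage points in replicate 1, below 0 at all 3 late stages, and 3.45 in replicate 2, above 0 at all 3. The difference between the replicates was not tested.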

How the results depend on the processing

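The number of late-active fragments depended most on the rule. It was 813 without an overlapping early positive fragment, 499 in at least 2 late positive libraries, 86 in both early Negative libraries, and 87 with no late Negative library, no overlapping early positive fragment and at least 2 late positive libraries, a setting chosen after seeing the data. It was 482 to 1941 when a replicate was left out. With ends matched within 5 bp it was 3228, without late Negative libraries 1784, without HE1 Medium of replicate 1 2068 and, chosen after seeing the data, without HE2 High of replicate 2 2346.

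The count of motifs past the threshold was 0 under every alternative run. Where labels were exchanged within 6 sorts, at least 7 of 11 would have had to reach the smallest p of 0.0312. Without HE1 of replicate 1 the smallest p was 0.0625. GC content reached an exact p of 0.0312 (difference 0.536) against early silent fragments not found late, and ran from -0.0469 to 0.537 when a replicate was left out. The length difference was 1.42 bp with matching within 5 bp, and from -26.5 to -0.167 when a replicate was left out. The difference in early positive overlap was 3.64 points within 5 bp and 10.2 against fragments not found late, and -12.7 to 4.51 without a replicate. The other-replicate difference was -1.08 points with 1 shared base, and -0.885 to 6.29 without a replicate. For single motifs 99 of 110 results kept their direction and side. Reversed were GATA (0.533 within 5 bp, 0.243 against fragments not found late), the E-box (-2.45 within 5 bp, -1.09 without HE1 Medium and -1.0 without HE1 of replicate 1, -1.15 without HE2 High of replicate 2, -2.29 to 2.6 without a replicate), PU.1 (-0.247 against fragments not found late) and RBPJ (-0.1 with all placed fragments, -0.671 without HE2 High of replicate 2, -3.39 to 3.45 without a replicate). The causes were not tested.

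With no replicate block, the values stayed at -13.3 bp for length, 0.245 for GC content, -4.08 for overlap and 2.7 for the other replicate, and exact p values were 0.468, 0.682, 0.76 and 0.548. The limit on the motif count did not apply there. Before adjustment 3 motifs were under 0.05 in the exact permutation test without a block. AP-1 had 0.00649 in that test and an adjusted p of 0.0714, the lowest of the motifs, so 0 passed. With 1 replicate the smallest possible p was 0.25, or 0.1 for the other replicate, so those fits cannot pass.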
